A study of Arabidopsis thaliana with 18 samples.

Results

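The comparison described here is atm1-1 against Col-0 over all growth media. It took in every library of the series, 18 of 18, of which the labels assign 9 to atm1-1 and 9 to Col-0, the wild type. Seedlings were 5 days old and grew at 22 °C under 12 h light (45 µmol m-2 s-1) and 12 h dark, on 3 media (mock, which held no added sugar, 15 mM glucose and 15 mM sucrose), and each of the 6 combinations has 3 libraries. RNA came from whole seedlings and was read as QuantSeq 3′ libraries, in which each count is a read near the 3′ end of a polyadenylated transcript. atm1-1 is 1 T-DNA insertion line in ATM1, SAIL_405_B08, so what is particular to the line and what follows from the loss of ATM1 cannot be told apart in these libraries. The study's methods call the 3 libraries of a group biological replicates. Whether each came from its own plate or sowing is not stated, and the tests measure the spread between these libraries.

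ATM1 is a class VIII myosin, an actin-based motor of plants. Class VIII myosins are known from the cell plate, plasmodesmata and the plasma membrane, while class XI myosins drive organelle movement and cytoplasmic streaming. Glucosinolates, to which the largest group of changed genes below belongs, are sulfur-rich defence compounds of the Brassicaceae. The aliphatic ones are made from methionine, whose side chain is lengthened in the chloroplast before the core structure is built and then modified.

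For each gene 1 genotype difference was estimated across the media, with the medium as a covariate. Levels are in CPM, a library's counts scaled to a common total, after TMM scaling, a correction for differences in library composition, and are given as the lowest, median and highest of the 9 libraries of a genotype. Differences are log2 fold changes, atm1-1 against Col-0, with their standard error (SE), and q is the p-value of edgeR's quasi-likelihood test after Benjamini-Hochberg adjustment over all genes tested, with the study's threshold of 0.1. The libraries held 9450790 to 20256309 counts in Col-0 and 10539681 to 17433441 in atm1-1. Replicates 1 and 2 of atm1-1 glucose stood apart from the other replicates of their group, with an SD of the log2 CPM differences of 0.727 and 0.885. Replicate 3 of that group had 0.536, inside the 0.393 to 0.582 of the other 15 libraries.

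The 3′ tags of ATM1 (AT3G19960) did not separate the genotypes. ATM1 stood at 26.2, 35.9 and 43.9 CPM in Col-0 and at 26.9, 32.8 and 43.8 CPM in atm1-1. The ranges overlapped almost entirely, and the log2 fold change was -0.08 (SE 0.11, edgeR q = 0.858), from 4259 counts in Col-0 and 4082 in atm1-1. A tag at the 3′ end need not show an insertion elsewhere in the gene, so this gene gives no check of the genotype labels, and atm1-1 below stands for the libraries labelled so. The other class VIII myosins were not called either. ATM2 had 26.9, 30.4 and 35.9 CPM in Col-0 and 24.1, 34 and 41.3 CPM in atm1-1 (log2 fold change 0.13, SE 0.09, edgeR q = 0.672). VIIIA and VIIIB, both much lower in these seedlings, had log2 fold changes of 0.11 (SE 0.29) and 0.13 (SE 0.23). Of 13 class XI myosins 9 were tested and 0 called, with a median log2 fold change of 0.09, and of 8 actins 6 were tested and 0 called, with a median of -0.04.

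A small share of the transcriptome differed between the genotypes. The table held 32832 genes. Of these, 19679 passed the filter on low counts, and 203 of those tested (1.03%) were called, 72 higher in atm1-1 (0.366%) and 131 lower (0.666%). Most of the differences were modest. The median size among the called genes was 0.56 on the log2 scale, and 9 of the rises and 26 of the falls reached 2-fold. The median over all genes tested was -0.01. The count moved with single libraries. It was 97 without Col-0 glucose replicate 1, 107 and 109 without atm1-1 mock replicates 1 and 3, 129 without atm1-1 sucrose replicate 2, 134 without replicate 1 of Col-0 mock, 132 without its replicate 3, and 400 without replicate 1 of atm1-1 glucose. Of the 203 genes, 80 were called in each of the 18 fits that left out 1 library.

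**Figure D1:**
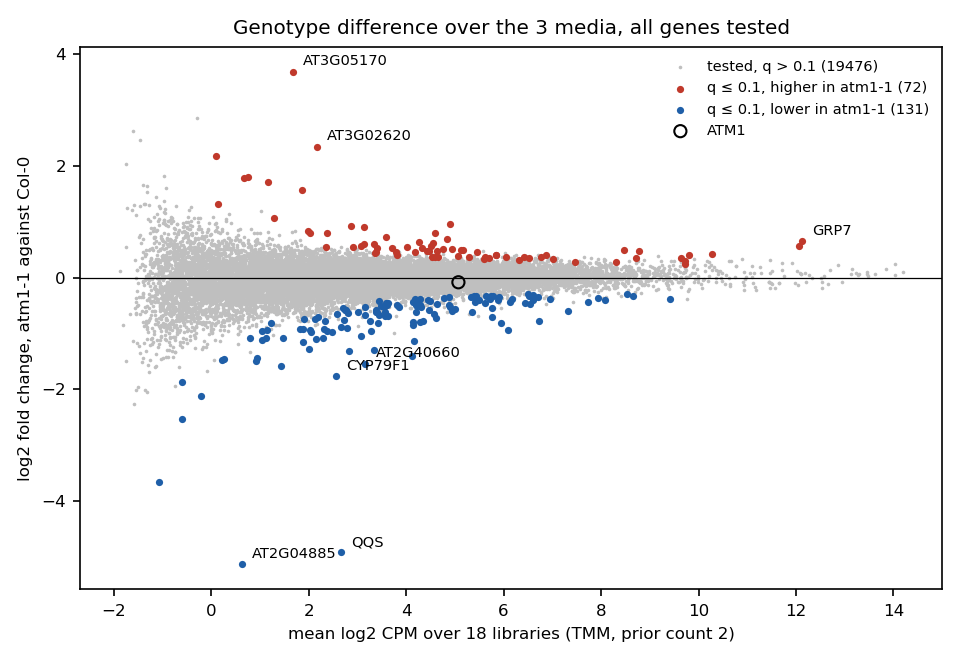
Log2 fold change of atm1-1 against Col-0 over the 3 media (vertical axis) against mean log2 CPM over the 18 libraries (horizontal axis) for the 19679 genes tested. Red points are the 72 genes called higher and blue points the 131 called lower, and the open circle is ATM1, which lies on the line of no difference.

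In 15 of the called genes (0.0762% of all genes tested) all 9 atm1-1 libraries lay apart from all 9 Col-0 libraries, 6 of them higher and 9 lower in atm1-1. In 54 called genes the 3 atm1-1 libraries of each medium lay on 1 side of the 3 Col-0 libraries of that medium, and 66 of all genes tested did so (0.335%). A gene tested with these same libraries has to be fairly well separated to be called, so these counts describe the calls and add no evidence to them.

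The largest fall among well expressed genes was in QQS (AT3G30720), an orphan gene of Arabidopsis that affects the partition of carbon and nitrogen between starch and protein. QQS stood at 20.8, 37.8 and 58.7 CPM in Col-0 and at 0.176, 1.09 and 2.16 CPM in atm1-1. The highest atm1-1 library was far below the lowest Col-0 library. The log2 fold change was -4.92 (SE 0.27, edgeR q = 9.02e-13), from 4600 counts to 158, and it was -5.19 in mock, -5.21 in glucose and -4.43 in sucrose. It stayed between -5.42 and -4.76 under the alternatives in which it was tested, and each of these kept the call.

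A further 3 transcripts of low abundance, chosen after their values were seen because they lay below the expression limit for naming, behaved in a like way. AT2G04885, a noncoding RNA, had 5.34, 8.56 and 12.8 CPM in Col-0 and 0, 0.155 and 0.641 CPM in atm1-1 (log2 fold change -5.14, SE 0.36, edgeR q = 1.39e-10). Its counts over 9 libraries were 1017 in Col-0 and 29 in atm1-1, with 3 atm1-1 libraries at 0. AT2G01422 had 132 counts in Col-0 and 9 in atm1-1, with 6 atm1-1 libraries at 0 (log2 fold change -3.67, SE 0.65, edgeR q = 0.00315). AT5G15360, which codes for an uncharacterized protein, went from 154 counts to 27 (log2 fold change -2.53, SE 0.44, edgeR q = 0.00233). In these transcripts too all 9 libraries of each genotype lay apart.

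Among the other falls with separate groups, CYP79F1 (-1.76), described with its pathway below, was followed by AT2G40660, annotated as a nucleic acid-binding protein with an OB fold. AT2G40660 had 12.6, 14.6 and 23.1 CPM in Col-0 and 3.02, 5.53 and 8.28 CPM in atm1-1 (log2 fold change -1.54, SE 0.16, edgeR q = 1.22e-06). The neighbouring loci AT1G54860, a GPI-anchored glycoprotein precursor, and AT1G54870, a Rossmann-fold oxidoreductase, fell together. AT1G54860 had 0.907, 2.59 and 32.1 CPM in Col-0 and 0.129, 0.792 and 7.77 CPM in atm1-1 (log2 fold change -1.59, SE 0.28, edgeR q = 0.00315). Its wide range within a genotype followed the medium, with the highest levels in mock, and in each medium the genotypes lay apart. AT1G54870 had a log2 fold change of -1.31 (edgeR q = 0.0101, SE 0.26), but of -2.57 in glucose and -0.26 in sucrose, and its groups overlapped. Without the mock libraries the q of AT1G54860 was 0.171 and that of AT1G54870 0.400.

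The largest rise was in AT3G05170, a member of the phosphoglycerate mutase family. It had 0.267, 0.75 and 1.71 CPM in Col-0 and 5.59, 11.1 and 15.7 CPM in atm1-1, with no overlap. The log2 fold change was 3.69 (SE 0.25, edgeR q = 7.7e-11), from 104 counts to 1396, and it was 3.28 in mock, 3.92 in glucose and 3.87 in sucrose. The sources used here do not state whether strand was used in counting, and AT3G05170 overlaps AT3G05180 on the opposite strand, so reads of the pair may not have been told apart. The same holds for BCAT4, IMD1, AT2G31790, AT3G19680, AT3G55890, BETA-TIP, AT4G22505, MYBR1, AT4G26670, FKF1, AT5G64170, RVE1, GUN4, CH1, RCA, PSY, PTAC17, ARCK1, DIN10, RAB18, COR15B, XTH15, AT3G07540, ATM2, CDKB2;1 and OLEO2, each of which overlaps a gene on the opposite strand, and for AT1G71060, which overlaps 1 on the same strand. The count given to AT3G05180 itself had a log2 fold change of -0.03 (edgeR q = 0.983, SE 0.23).

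AT3G02620 and AT3G02610, adjacent genes for stearoyl-ACP desaturases, enzymes that put the first double bond into fatty acids, both rose. AT3G02620 had 1.07, 1.87 and 2.94 CPM in Col-0 and 4.72, 10.8 and 23.8 CPM in atm1-1 (log2 fold change 2.35, SE 0.21, edgeR q = 7.15e-08), and its groups lay apart. AT3G02610 had 1.07, 1.57 and 2.18 CPM in Col-0 and 1.91, 3.57 and 4.74 CPM in atm1-1 (log2 fold change 1.08, SE 0.21, edgeR q = 0.0100), with a slight overlap. As members of 1 gene family they may share reads, and how such reads were counted is not given in the sources used here.

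Another pair of nearby loci on chromosome 3 rose as well. AT3G55890, of the Yippee family of putative zinc-binding proteins, had 0.372, 1.29 and 2.46 CPM in Col-0 and 2.82, 4.08 and 4.96 CPM in atm1-1, with no overlap (log2 fold change 1.71, SE 0.24, edgeR q = 0.000184). AT3G55920, a cyclophilin-like prolyl isomerase, had 1.3, 2.11 and 3.64 CPM in Col-0 and 1.23, 7.96 and 8.94 CPM in atm1-1 (log2 fold change 1.57, SE 0.28, edgeR q = 0.00306). A single atm1-1 library lay at the level of Col-0, while the median was well above it. AT3G55910, which overlaps AT3G55920 on the opposite strand, had a log2 fold change of 1.13 (edgeR q = 0.154, SE 0.35). The noncoding RNA AT2G06995, chosen after its values were seen, rose from 0.178, 0.432 and 0.75 CPM to 1.32, 1.80 and 3.03 CPM, without overlap (log2 fold change 2.18, SE 0.30, edgeR q = 0.000144). The other genes with no overlap were DGR1 (log2 fold change 0.73, edgeR q = 0.00088) and AT4G26670 (0.41, edgeR q = 0.00922) among the rises, and CYP79F1, TCH4, MYBR1 and AT3G19680 among the falls.

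**Figure D2:**
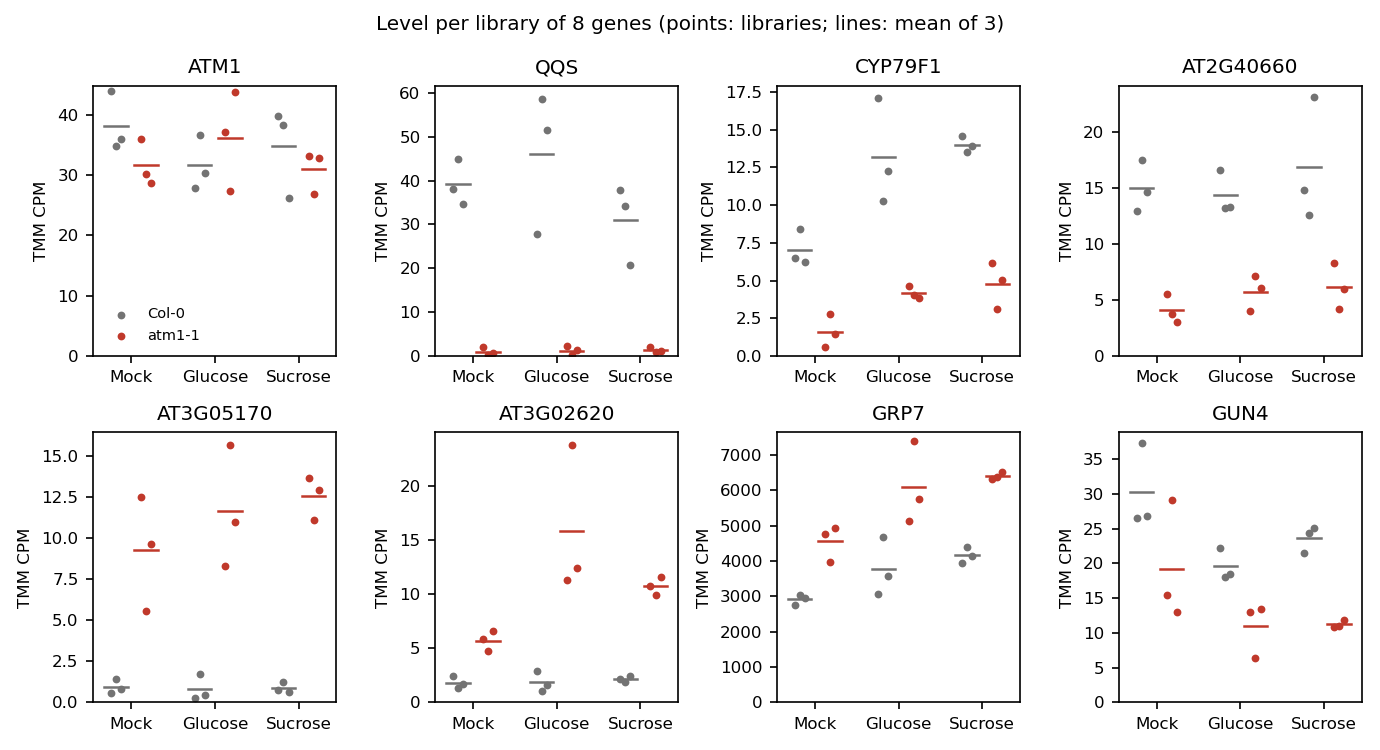
TMM-scaled CPM (vertical axis, from 0) in each of the 18 libraries for 8 genes, by medium, with Col-0 in grey and atm1-1 in red and a line at the mean of the 3 libraries. The genotypes overlap in ATM1 and in GUN4, lie apart over all libraries in QQS, CYP79F1, AT2G40660, AT3G05170 and AT3G02620, and lie apart within each medium in GRP7.

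The other rises that reached 2-fold lay below the expression limit for naming, were chosen after their values were seen and were not separated over all libraries. They were the kinase gene ARCK1 (1.80, edgeR q = 0.0218), the cytochrome P450 gene AT5G08250 (1.78, edgeR q = 0.000745) and PBS3, of the GH3 family (1.32, edgeR q = 0.0907). The remaining rises above that limit were smaller than 2-fold. AT5G44440, a berberine bridge enzyme-like oxidase, had 10.1, 21.7 and 42.1 CPM in Col-0 and 14.1, 56.2 and 85.4 CPM in atm1-1 (log2 fold change 0.95, SE 0.16, edgeR q = 0.00204). Its differences were 0.44 in mock, 1.31 in glucose and 1.06 in sucrose. AT1G13480 showed a like order, with 0.38, 1.29 and 1.12 (all media 0.93, SE 0.18, edgeR q = 0.00682). AT1G17665 rose by 0.90 (SE 0.19, edgeR q = 0.0223). Weaker calls among the named rises were AT1G71060 (0.80, edgeR q = 0.0613) and the receptor-like kinase gene AT5G49770 (0.79, edgeR q = 0.0922), whose q reached 0.465 and 0.486 under other settings or without some libraries. Weaker calls among the named falls were AT1G80610 (-1.29, edgeR q = 0.0470), the lipid-transfer-like gene AT4G22505 (-1.15, edgeR q = 0.0589) and the noncoding RNA AT5G03395 (-1.12, edgeR q = 0.0755), whose q reached 0.622, 0.465 and 0.657.

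**Figure D3:**
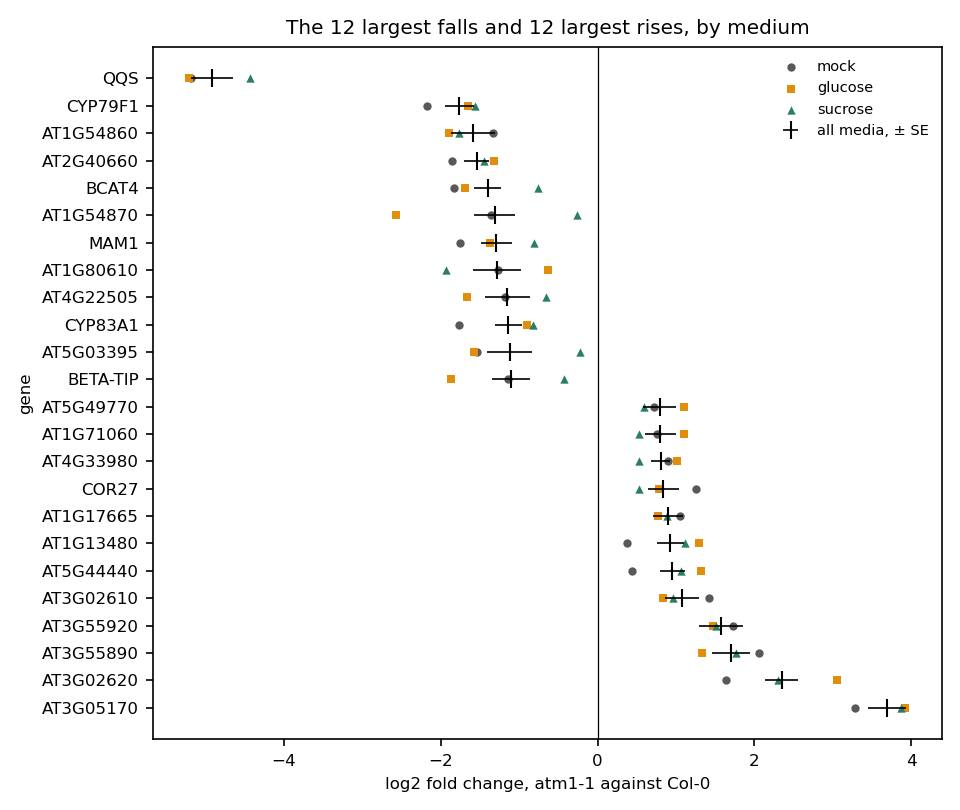
Log2 fold change of atm1-1 against Col-0 (horizontal axis) for the 12 largest falls and 12 largest rises whose mean log2 CPM was 1 or more (vertical axis, 1 gene a row). Symbols give the difference within mock, glucose and sucrose, and the tick with its bar gives the estimate over all media ± SE. The 3 media lie on the same side of 0 in every gene shown, which the choice of genes required.

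Genes of aliphatic glucosinolate synthesis were lower in atm1-1. Of 31 genes listed 30 were in the table and 28 were tested. Of these 11 fell, 0 rose, and the log2 fold changes of all 28 were below 0. The median was -0.63, beside -0.01 for all genes tested, and 39.3% of the members were called against 1.03% of all genes. Earlier results of these data, in which CYP83A1 and CYP79F1 were lower, were known when the list was made, so the list is not independent evidence of the direction. Without the mock libraries 3 members were called and the median was -0.42.

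Chain elongation, which lengthens methionine, held most of the fallen genes. BCAT4, the aminotransferase that opens the cycle, had 18.6, 32.8 and 41.5 CPM in Col-0 and 2.70, 8.97 and 26.0 CPM in atm1-1 (log2 fold change -1.40, SE 0.18, edgeR q = 3.09e-05). The genotypes overlapped over all libraries and lay apart within each medium. MAM1, the synthase of the condensing step, had 13.6, 15.9 and 22.6 CPM in Col-0 and 1.5, 6.51 and 14.2 CPM in atm1-1 (log2 fold change -1.29, SE 0.20, edgeR q = 0.000529). MAM1 also lay apart within each medium, and its q was 0.189 without the mock libraries. The isomerase small subunits fell, IPMI1 by 0.95 log2 units (SE 0.20, edgeR q = 0.0231) and IPMI2 by 0.80 (SE 0.16, edgeR q = 0.0160), as did the dehydrogenase IMD1 (-0.96, SE 0.18, edgeR q = 0.00783). BAT5, the carrier that moves the keto acids across the chloroplast envelope, fell by 0.92 (SE 0.22, edgeR q = 0.0509) and was called in 15 of the 18 fits without 1 library. MAM3, at 1.73 and 0.809 CPM on average in Col-0 and atm1-1, was just outside the threshold with -1.47 (SE 0.41, edgeR q = 0.105). The isomerase large subunit IIL1 and the aminotransferase BCAT3, which also serve leucine and other amino acid synthesis, had -0.05 (edgeR q = 0.883) and -0.09 (edgeR q = 0.793).

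The first steps of core synthesis fell too. CYP79F1, which converts the elongated methionine to an oxime, had 6.21, 12.2 and 17.1 CPM in Col-0 and 0.576, 3.87 and 6.14 CPM in atm1-1. The groups came close but did not overlap, and the log2 fold change was -1.76 (SE 0.19, edgeR q = 1.59e-06). Its paralogue CYP79F2 had -0.64 (SE 0.20, edgeR q = 0.158), and reads that the 2 copies share may have been divided between them or lost. CYP83A1, which oxidizes the oxime, had 19.7, 26.2 and 44.7 CPM in Col-0 and 3.76, 15.1 and 19.9 CPM in atm1-1 (log2 fold change -1.14, SE 0.17, edgeR q = 0.000529). Of the conjugation and transfer steps, GSTU20, a glutathione transferase, fell by 0.81 (SE 0.12, edgeR q = 0.000529, and 0.234 without the mock libraries) and the glucosyltransferase gene AT2G31790 by 0.58 (SE 0.11, edgeR q = 0.0100). The steps shared with indole glucosinolates were not called, with -0.29 for GGP1 (edgeR q = 0.302) and -0.27 for SUR1 (edgeR q = 0.335). The sulfotransferases SOT17 and SOT18 had -0.18 (edgeR q = 0.755) and -0.36 (edgeR q = 0.112). Among the side-chain S-oxygenases FMO GS-OX3, at low counts (246 in Col-0 and 89 in atm1-1), fell by 1.45 (SE 0.33, edgeR q = 0.0348).

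The regulators of the pathway differed from its enzymes in what could be read. MYB28, an activator of the aliphatic genes, had means of 7.46 CPM in Col-0 and 7.26 CPM in atm1-1 and a log2 fold change of -0.04 (edgeR q = 0.954, SE 0.13). MYB29 had 135 counts in all 18 libraries and a log2 fold change of -0.63 (edgeR q = 0.610, SE 0.40), and MYB76, with 18 counts, was not tested. Of 16 indole glucosinolate genes tested 0 were called, and their median was -0.07. The smallest q in that list was just outside the threshold (edgeR q = 0.1004), and at least 1 member was called under 10 of the alternatives. The medians of the list were -0.31 in mock, -0.04 in glucose and 0.01 in sucrose.

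The median difference of the aliphatic genes lay furthest from 0 on medium without sugar. Over the 28 genes it was -0.97 in mock, -0.55 in glucose and -0.29 in sucrose. For BCAT4 the differences were -1.83, -1.69 and -0.76, and for IPMI2 they were -1.46, -0.69 and -0.30. The test of this variation, the interaction of genotype and medium, gave an unadjusted p of 0.0166 for BCAT4 and 0.00875 for IPMI2, and neither passed adjustment in edgeR (q = 0.99984 for the smallest of all genes). The fall of CYP79F1, with -2.17, -1.65 and -1.56, had an unadjusted interaction p of 0.400. The order of the media was thus not shown to differ beyond the spread of the libraries.

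**Figure D4:**
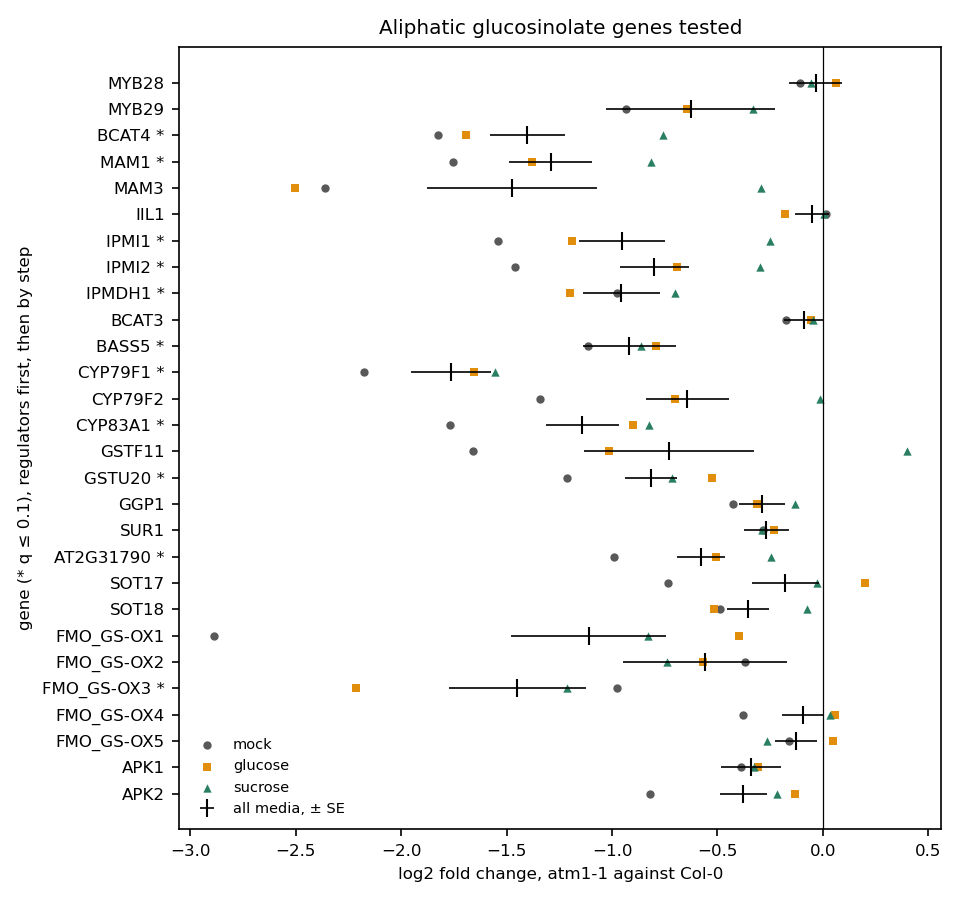
Log2 fold change of atm1-1 against Col-0 (horizontal axis) for the 28 aliphatic glucosinolate genes tested (vertical axis), with regulators first and then the genes in the order of the pathway. Symbols give mock, glucose and sucrose, the tick and bar give the estimate over all media ± SE, and asterisks mark the 11 genes called, in which all 3 media lie below 0. IPMDH1 and BASS5 are IMD1 and BAT5 of the text.

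The other lists held few calls or none. No gene was called, and the medians ran from -0.17 (LTP1 to LTP4) to 0.10 (mitotic cell cycle genes), in the lists of thalianol and marneral genes (7 tested), LTP1 to LTP4 (3), Aux/IAA genes (24), auxin receptors and carriers (14), mitotic cell cycle genes (18), D-type cyclins (9), sugar starvation markers (16), glucose sensing, TOR and SnRK1 genes (11), ER body genes (13), core clock genes (14) and DNA methylation genes (13). In the thalianol and marneral list the pooled median of -0.12 covered -0.96 in mock, 0.20 in glucose and 0.17 in sucrose. CYP705A5, of the thalianol cluster, had -0.96, 0.18 and 0.28, and THAS1, the thalianol synthase, had -1.0, 0.0025 and 0.33. Their unadjusted interaction p-values were 0.000105 and 0.000733, and neither passed adjustment (edgeR q = 0.99984). The most abundant starvation markers had pooled differences of opposite sign, and neither was called. DIN10, of the raffinose synthase family, had 375, 516 and 588 CPM in Col-0 and 266, 441 and 704 CPM in atm1-1 (log2 fold change -0.13, SE 0.10, edgeR q = 0.707). Its differences were 0.23 in mock, -0.27 in glucose and -0.36 in sucrose, with an unadjusted interaction p of 0.0379 that did not pass adjustment in edgeR. SEN1 (also DIN1) had 331, 393 and 459 CPM in Col-0 and 263, 516 and 650 CPM in atm1-1 (log2 fold change 0.30, SE 0.11, edgeR q = 0.258). In the same order of media its differences were 0.41, 0.36 and 0.13. The methyltransferase gene MET1 had 0.14 (SE 0.09, edgeR q = 0.654). Among 11 flavonoid and anthocyanin genes tested 0 were called, with a median of -0.32 and the lowest at -2.04. At least 1 gene was called under 9 of the alternatives for the sugar starvation markers, 3 for this list and 2 for the core clock genes. The smallest q of the starvation markers was 0.126 (edgeR), and their medians were 0.26 in mock, -0.03 in glucose and -0.06 in sucrose.

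Of 10 DNA replication genes tested 1 rose and 9 had log2 fold changes above 0, with a median of 0.20. The 1 call is 10.0% of the members, beside 1.03% of all genes tested. MCM4, a subunit of the replicative helicase, had 7.48, 8.81 and 9.99 CPM in Col-0 and 8.33, 12.0 and 15.4 CPM in atm1-1 (log2 fold change 0.44, SE 0.12, edgeR q = 0.0850). In the mitotic list CDKB2;1 had 0.11 (SE 0.12, edgeR q = 0.826), and in the D-type cyclins CYCD3;3 had 0.25 (SE 0.13, edgeR q = 0.525). Of the root tip markers 13 were in the table, 7 were tested and 1 rose (14.3%, beside 1.03% called of all genes), with a median of 0.29. JKD (JACKDAW), a zinc-finger factor of the root ground tissue, had 10.5, 12.4 and 14.2 CPM in Col-0 and 13.4, 15.5 and 20.2 CPM in atm1-1 (log2 fold change 0.40, SE 0.10, edgeR q = 0.0741), and its groups lay apart in each medium. The summed level of the 13 root tip markers was 32.6 to 46.4 CPM in Col-0 and 42.5 to 55.4 CPM in atm1-1. WOX5, PLT1, PLT2, SMB and FEZ, which define parts of the tip, had 11 to 60 counts in all 18 libraries and were not tested. Both calls were weak. The q of MCM4 reached 0.486 and that of JKD 0.513 under other settings or without some libraries. Of 31 alternatives MCM4 lost its call in 22 and JKD in 18. Both were lost with library size scaling and in many of the fits without a single library.

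In RNA from whole seedlings fewer cells of a type and less RNA per cell cannot be told apart, and the part that the share of root tip has in these values was not tested. Over all media the summed levels of the root tip markers overlapped between the genotypes, and so did those of the other marker lists. Within mock the root tip sums, which include JKD, lay apart (32.6 to 40.6 CPM in Col-0, 42.5 to 48.0 CPM in atm1-1). They lay apart in glucose too (39.5 to 42.8 and 46.2 to 55.4 CPM) and overlapped in sucrose (37.9 to 46.4 and 42.9 to 53.3 CPM). For root hairs the sums over all media were 19.9 to 59.0 CPM in Col-0 and 19.5 to 46.9 CPM in atm1-1. They were 225 to 463 and 321 to 553 CPM for the endodermis, and 99840 to 128766 and 85634 to 139340 CPM for green tissue. In the root hair, endodermis and green tissue lists 0 genes were called. At least 1 gene was called under 11 of the alternatives for green tissue, 3 for the endodermis and 2 for root hairs.

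**Figure D5:**
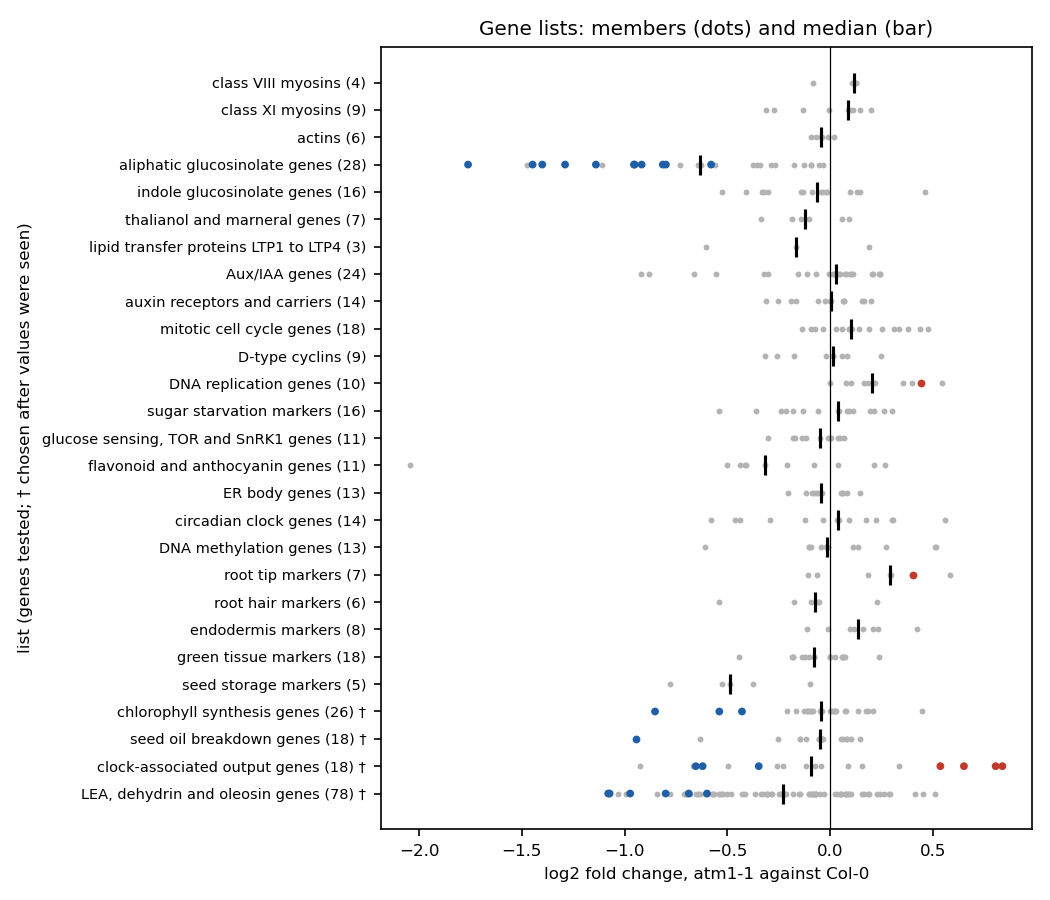
Log2 fold change of atm1-1 against Col-0 (horizontal axis) of every tested member of each gene list (vertical axis, with the number tested in brackets). Dots are genes, in red where called higher, blue where called lower and grey where not called, and the black bar is the median. The aliphatic glucosinolate list holds 11 of the blue dots and lies wholly below 0. A dagger marks the 4 lists chosen after values were seen.

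A further 4 groups were chosen after the values of the called genes had been seen, and their counts are a description. Because called genes led to their choice, their shares of calls are high by construction beside the 1.03% of all genes, and nothing is read from them. Among 18 genes near the clock 4 rose and 3 fell (38.9%). The count was 4 without Col-0 glucose replicate 1, and 2, 4 and 3 without the mock, glucose and sucrose libraries. GRP7, a glycine-rich RNA-binding protein whose transcript cycles with the clock, was among the most abundant transcripts called. It had 2766, 3588 and 4666 CPM in Col-0 and 3982, 5742 and 7403 CPM in atm1-1 (log2 fold change 0.65, SE 0.08, edgeR q = 5.25e-05), with 0.64, 0.69 and 0.62 in mock, glucose and sucrose. The genotypes lay apart in each medium. COR27, a cold-regulated protein of the clock, rose by 0.84 log2 units (SE 0.20, edgeR q = 0.0489), AT4G33980 by 0.80 (SE 0.12, edgeR q = 0.000529) and FKF1, a blue-light receptor that acts in the timing of flowering, by 0.54 (SE 0.11, edgeR q = 0.0231). AT5G64170 (-0.62, SE 0.12, edgeR q = 0.00668), the MYB-like factor RVE1 (-0.65, SE 0.15, edgeR q = 0.0358) and COL5 (-0.35, SE 0.09, edgeR q = 0.0620) fell. The core clock genes listed above were not called, with -0.46 for CCA1 (edgeR q = 0.335), -0.44 for LHY (edgeR q = 0.465) and 0.30 for TOC1 (edgeR q = 0.271). The hour of harvest is not given in the sources used here, and a difference in the time of harvest was not tested. COR27 lost its call without Col-0 mock replicate 2 or 3, Col-0 glucose replicate 1 or atm1-1 mock replicate 1 or 3, with q up to 0.551 over all settings, and RVE1 lost it without Col-0 glucose replicate 1.

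Of 26 genes of chlorophyll synthesis 3 fell (11.5%, beside 1.03% of all genes) and 0 rose, and their median was -0.04. None was called without the sucrose libraries. GUN4, which stimulates magnesium chelatase, had 18.1, 24.3 and 37.3 CPM in Col-0 and 6.33, 13.0 and 29.1 CPM in atm1-1 (log2 fold change -0.85, SE 0.15, edgeR q = 0.00204). A single atm1-1 mock library lay within the Col-0 range of its medium, and the glucose and sucrose libraries lay below theirs. CH1, which makes chlorophyll b, fell by 0.54 (SE 0.10, edgeR q = 0.00426) and HEMA1, the glutamyl-tRNA reductase at the start of the pathway, by 0.43 (SE 0.10, edgeR q = 0.0348). Single called genes for other chloroplast proteins, chosen after their values were seen from no fixed list, moved both ways. SIGE, a plastid sigma factor (-0.61, SE 0.09, edgeR q = 0.000658), RCA, Rubisco activase (-0.39, SE 0.09, edgeR q = 0.0460), and PSY, phytoene synthase (-0.67, SE 0.17, edgeR q = 0.0615), fell. CP29, a chloroplast RNA-binding protein (0.36, SE 0.09, edgeR q = 0.0544), and PTAC17 (0.40, SE 0.09, edgeR q = 0.0441) rose. The 18 green tissue markers, Rubisco small subunits and antenna proteins, had a median of -0.08.

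Of 78 LEA, dehydrin and oleosin genes tested, out of 108 with such an annotation, 6 fell (7.69%, beside 0.666% of all genes lower) and 0 rose, and the median was -0.23. The count was 3 without Col-0 mock replicate 3, Col-0 glucose replicate 1, Col-0 sucrose replicate 2, atm1-1 mock replicate 1, atm1-1 glucose replicate 3 or atm1-1 sucrose replicate 2, and 0 and 2 without the mock and glucose libraries. RAB18, a dehydrin induced by abscisic acid, had 107, 169 and 411 CPM in Col-0 and 99.9, 121 and 203 CPM in atm1-1 (log2 fold change -0.60, SE 0.12, edgeR q = 0.0100). Its differences were -1.04 in mock, -0.70 in glucose and -0.05 in sucrose, with an unadjusted interaction p of 0.000505 that did not pass adjustment. LEA (AT2G21490) and AT2G42560, of the late embryogenesis abundant proteins, fell by 1.08 (SE 0.22, edgeR q = 0.0131) and by 1.07 (SE 0.23, edgeR q = 0.0231). BETA-TIP, an aquaporin of the storage vacuole membrane, fell by 1.1 (SE 0.24, edgeR q = 0.0279). Of 18 genes of seed oil breakdown tested 1 fell (5.56%, beside 0.666% of all genes). ICL, isocitrate lyase of the glyoxylate cycle, had 41.4, 85.9 and 217 CPM in Col-0 and 25.2, 43.7 and 115 CPM in atm1-1 (log2 fold change -0.94, SE 0.14, edgeR q = 0.000505). Its genotype ranges overlapped, while the 3 media gave -0.93, -1.11 and -0.79.

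The levels of the seed storage markers differed widely between media, and the ranges of the genotypes overlapped in each. Their summed level over 10 genes was 5.57 to 8.06 CPM in Col-0 mock and 1.5 to 5.64 CPM in atm1-1 mock, 18 to 130 and 47.7 to 57.4 CPM in glucose, and 121 to 176 and 54.3 to 174 CPM in sucrose. Of these markers 5 were tested, 0 were called, all 5 had log2 fold changes below 0, and the median was -0.49. OLEO2, an oil body protein, had -0.53 (SE 0.29, edgeR q = 0.519). Whether the falls of LEA, oleosin and ICL transcripts go with a difference in the remains of seed programmes was not tested.

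The 2 dormancy-associated genes of highest abundance were higher in atm1-1, and were also chosen after their values were seen. AT2G33830 had 3110, 3648 and 3871 CPM in Col-0 and 3866, 5176 and 6452 CPM in atm1-1 (log2 fold change 0.56, SE 0.09, edgeR q = 0.00088), and DYL1 rose by 0.43 (SE 0.09, edgeR q = 0.0279). Among genes of cell wall remodelling, the touch-induced TCH4, a xyloglucan endotransglucosylase, fell from 22.2, 26.7 and 35.0 CPM to 7.65, 17.7 and 22.0 CPM (log2 fold change -0.77, SE 0.13, edgeR q = 0.00204). The related XTH15 (0.51, SE 0.11, edgeR q = 0.0325) and the expansin EXPA16 (0.53, SE 0.12, edgeR q = 0.0422) rose, and EXPA8 fell (-0.39, SE 0.10, edgeR q = 0.0831). Also chosen after their values were seen, AT3G07540, a formin, rose by 0.38 (SE 0.10, edgeR q = 0.0983), and AT5G06560, annotated as a myosin-binding protein, by 0.35 (SE 0.09, edgeR q = 0.0823).

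The called genes were spread over the genome. The share of tested genes called was 1.02% on chromosome 1, 1.19% on chromosome 2, 0.829% on chromosome 3, 0.902% on chromosome 4 and 1.2% on chromosome 5. Among the 200 tested genes that flank ATM1, 100 on each side, 2 were called (1.00%). They were BCAT4 and its called neighbour AT3G19680, which lie 21 and 22 tested genes from ATM1. AT3G19680, a gene of unknown function, had 40.2, 45.9 and 50.2 CPM in Col-0 and 30.8, 35.3 and 39.3 CPM in atm1-1, with no overlap (log2 fold change -0.35, SE 0.08, edgeR q = 0.0350). Both lie on the chromosome that carries the insertion, and linkage to it was not tested. Of the called genes 8 pairs were neighbours in locus order among the genes tested. In 5 of them both members moved the same way, among them FRO6 (-0.56) and FRO7 (-1.07), ferric reductases. Of all calls 64.5% were lower. The number of such pairs expected without any link was not worked out, and nothing is read from these counts.

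In the main edgeR fit the genotype difference was not shown to vary with the medium for any gene. The simulated data described below did not cover the interaction, so how large a variation would have been found is not known. The interaction of genotype and medium called 0 of 19679 genes (0%) in edgeR. Its unadjusted p was under 0.05 in 507 genes, 2.58% of those tested, beside 5% expected with no interaction. Among the 203 genes called for genotype it was under 0.05 in 20 (9.85%). By DESeq2 the count of interaction calls was 4, by edgeR with no filter on low counts it was 46, and with Col-0 sucrose replicate 1 left out edgeR called 2. Of the 203 called genes 201 had the same sign in all 3 media. The exceptions were COR15B, a cold-regulated gene (-0.10 in mock, 1.12 in glucose, 1.01 in sucrose), and AT4G36850 (0.08 in mock, -0.66 in glucose, -0.82 in sucrose). Fits without 1 medium called fewer genes, 28 without mock, 122 without glucose and 56 without sucrose, and all 203 genes kept their sign in each. The pooled test favours genes with 1 sign over the media, and these fits share its libraries. Both counts of signs therefore describe the calls and add no evidence to them.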

How the data were processed

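RNA of whole seedlings was read as QuantSeq 3′ libraries (single-end), and the authors mapped the reads to TAIR10. STAR, HTSeq and edgeR are named in the submitters' processing notes without versions, and the use of strand and the annotation release are not given in the sources used here. The authors deposited raw read counts per gene for 18 libraries, together with a table of signal values, in which the deposited counts are scaled so that each library sums to 13479816 to 13489041. The groups were taken from the labels. The members of the comparison and the gene lists were chosen with earlier results of these data known.

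Counts were analysed in R 4.3.3 with edgeR 4.0.16 (filterByExpr over the 6 groups, TMM, glmQLFit and glmQLFTest, medium and genotype as additive terms, Benjamini-Hochberg adjustment, q ≤ 0.1). The interaction was tested with both of its coefficients together. PoissonSeq, the tool of the study, was not used. CPM values are TMM-scaled and log2 CPM uses a prior count of 2. Depth was 9450790 to 20256309 counts per library. Without molecular identifiers, PCR copies count as separate reads.

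Named genes were the class VIII myosins, the 12 largest rises and falls whose mean log2 CPM was 1 or more, with 1 sign in all media, called list members (at most 4 a list, or the 2 most abundant where none was called) and called genes among the 100 tested genes on either side of ATM1. Others are said to have been chosen after their values were seen, or are members of a list that is described in full. Symbols are those of the lists or of the RefSeq annotation of TAIR10.1, where 32547 of 32832 loci matched and the other 285 had 0 counts. Coordinates are not given, since the reference is another release than that of the files.

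The alternatives were RLE factors, library size scaling, a filter of 1 count over all libraries or of 10 counts in every library, DESeq2 1.42.0, limma 3.58.1 on log2-transformed signal values (pseudocounts 1 and 0.1), 6 group means averaged, a replicate block, a threshold of 0.05, and fits without each medium or library. On simulated data for this comparison over 19679 genes, 58.2%, 94.0% and 95.5% of genes changed 1.5-fold, 2-fold and 4-fold were recovered, 19 of 184 calls were unchanged genes, and data without changes gave 0 calls. Each gene was simulated on its own, so deviations shared by the genes of a library were left out.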

Additional observations from a re-analysis of the deposited data

How the results depend on the processing

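The direction of all 203 calls was kept under each alternative that tested them, while their number was not. These fits used the same libraries or part of them, so the kept direction describes the calls and adds no evidence to them. With at least 1 count as the only filter 533 genes were called (193 higher, 340 lower) and 46 for the interaction, and with DESeq2 427 (171 higher, 256 lower) and 4. At a threshold of 0.05 the count was 104 (39 higher, 65 lower). Without the mock libraries it was 28 (11 and 17), without the glucose libraries 122 (35 and 87) and without the sucrose libraries 56 (15 and 41). limma on the scaled table with a pseudocount of 1 called 198 genes lower. Library size scaling changed the split, with 22.2% of 225 calls higher against 35.5% of 203, as did limma with 22.0% and 23.4%, and it moved the median of all genes from -0.01 to -0.04. The cause of these shifts was not tested, except that fits without libraries had fewer samples. Leaving out each library in turn gave 97 to 400 calls, 36 to 181 higher and 61 to 219 lower, 0 to 2 for the interaction, and -0.15 to -0.04 for ATM1, and 80 calls (30 higher, 50 lower) were kept throughout.

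The replicate numbers did not pair the samples. The deviations of same-numbered libraries correlated at -0.148 to 0.275 over 45 pairs (median -0.01), 3 pairs were over 0.1, and 4 of 18 libraries correlated best with their own number. With the replicate block 187 genes were called, 180 of them among the 203. Of 2130 values of 69 named genes besides ATM1 under the alternatives, 131 lost and 5 gained a call, and 0 changed direction as called genes. That direction too comes from the same libraries and adds no evidence. At this depth and spread of single genes 58.2% of simulated 1.5-fold changes were recovered, so smaller differences were often not detectable. The simulation held no deviations shared by the genes of a library, so recovery in the real libraries may differ.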
